A study of Mus musculus with 9 samples.

Results

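Transcripts of antibody chains, of the J chain that joins antibodies into polymers and of the receptor that carries those polymers across epithelia were measured in whole mouse kidney at 2 ages. The 10 symbols chosen were the light chain constant genes *Igkc*, *Iglc1* and *Iglc2*, the heavy chain constant genes *Ighm*, *Igha*, *Ighg2b* and *Ighg2c*, and *Jchain*, *Mzb1* and *Pigr*. The table held 8 of them among its 13081 genes, and *Iglc2* and *Mzb1* were not analysed here. The young group was kidneys of wild-type mice aged 3 months (n = 4) and the old group kidneys of wild-type mice aged 16 months (n = 5), of the C57BL/6 strain per the study. None received a treatment that the labels name, and the labels give no sex. The 2 title prefixes of the libraries follow age completely, so that age and any difference in preparation or sequencing cannot be told apart. The genes were chosen with their old and young values known, so these values and the isotype shares are given as a description. Calls of these genes are counted once beside those of all genes tested, and no p is given for them.

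Plasma cells, the secreting end stage of B cells, make antibodies from paired heavy and light chains, and the heavy chain constant gene sets the isotype: *Ighm* gives IgM, *Igha* IgA, *Ighg2b* IgG2b and *Ighg2c* IgG2c. The J chain links IgA into dimers and IgM into pentamers, and the polymeric immunoglobulin receptor, encoded by *Pigr*, binds these polymers at the basal face of an epithelial cell, carries them through it and releases them at the other face with a part of itself, the secretory component. Plasma cells that make IgA are best known from gut, airway and glands, while in the kidney *Pigr* is made by tubular epithelium and polymeric IgA reaches the urine.

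The heavy chains differ in the tail to which the J chain binds. The last 60 coding bases (20 codons with the stop) of the secreted form are shown for the 4 heavy chain genes analysed, because they divide the isotypes into those that can be carried by the receptor and those that cannot. Capitals mark a cysteine codon just before the last amino acid, which holds the bond to the J chain. The sequences are from GENCODE vM21 on GRCm38, minus strand, at chr12:113258768-113258827 for *Igha*, chr12:113420867-113420926 for *Ighm*, chr12:113306389-113306448 for *Ighg2b* and chr12:113287389-113287448 for *Ighg2c*. The cysteine codon was at this place in *Igha* and *Ighm*, and both IgG genes had GGT there.
Igha: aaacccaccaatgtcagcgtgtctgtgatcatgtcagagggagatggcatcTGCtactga
Ighm: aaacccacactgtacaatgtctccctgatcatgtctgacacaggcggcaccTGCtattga
Ighg2b: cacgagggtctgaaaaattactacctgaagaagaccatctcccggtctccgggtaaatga
Ighg2c: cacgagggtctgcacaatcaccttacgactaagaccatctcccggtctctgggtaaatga

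The 4 heavy chain genes lie together on chromosome 12, minus strand, with *Igha* at chr12:113254830-113260236, *Ighg2c* at chr12:113285325-113288932, *Ighg2b* at chr12:113302965-113307933 and *Ighm* at chr12:113418558-113422730. *Igkc* is a single exon on the plus strand at chr6:70726435-70726966, and *Iglc1* lies on the minus strand at chr16:19061618-19062071. *Jchain* has 4 exon blocks at chr5:88519809-88527891, minus strand, and *Pigr* has 11 at chr1:130826684-130852249, plus strand. These positions are of GRCm38, while the authors aligned to GRCm39. Over the last 500 bases of each transcript, where reads of this assay fall, 0% of 50-base stretches were shared with another gene for *Igha*, *Ighm*, *Ighg2b*, *Igkc*, *Iglc1* and *Jchain*. One *Ighg2c* transcript shared 3.10% with *Ighg2b*, and one *Pigr* transcript shared 14.6% with many other genes, so values of these genes are less certain.

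The table held 4486406 to 6355095 reads per library, and a count of 3 reads, taken as the detection floor, was 4.72e-05% to 6.69e-05% of them. Mitochondrial transcripts took 27.0% to 29.7% of the reads in young and 35.8% to 38.1% in old libraries. All 12 markers of kidney epithelium in the list used were in the table. The values are normalized counts, that is the reads of each gene after division by the size factor of its library. Because reads come from transcript ends, about 1 site per transcript is read, and levels of different genes were set side by side without division by length. More cells of a kind and more RNA per cell cannot be told apart in bulk tissue.

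Antibody chain transcripts were more abundant in the old kidneys. The summed normalized counts of the 6 immunoglobulin genes were 1320, 544, 526 and 414 in young replicates 1 to 4 and 5878, 2291, 7148, 3197 and 7881 in old replicates 1 to 5. The means were 701 ± 417 (SD, n = 4) and 5279 ± 2444 (SD, n = 5), a 7.53-fold ratio, and the groups did not overlap. As a share of all table reads, they took 0.00836% to 0.0254% in young and 0.0436% to 0.148% in old libraries. Differences on the log2(normalized count + 1) scale, called the log2 difference here, come from limma. A gene is called where its Benjamini-Hochberg adjusted p was under 0.05. All 8 genes were called higher in old, where 29.2% of the 12667 genes tested were called higher and 59.7% called in either direction. Their median log2 difference was 2.05, against -0.0027 over all genes tested. For 7 of the 8, every old library was above every young library, which held for 23.3% of genes tested. Nothing is read from these counts, since the genes were chosen on this contrast. Genes were tested with at least 10 normalized counts in at least 4 libraries. *Ighg2c* reached 10 in 0, *Iglc1* in 1 and *Ighg2b* in 3 of the young libraries, so these genes passed only with the old libraries, which favors genes higher there.

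**Figure D1:**
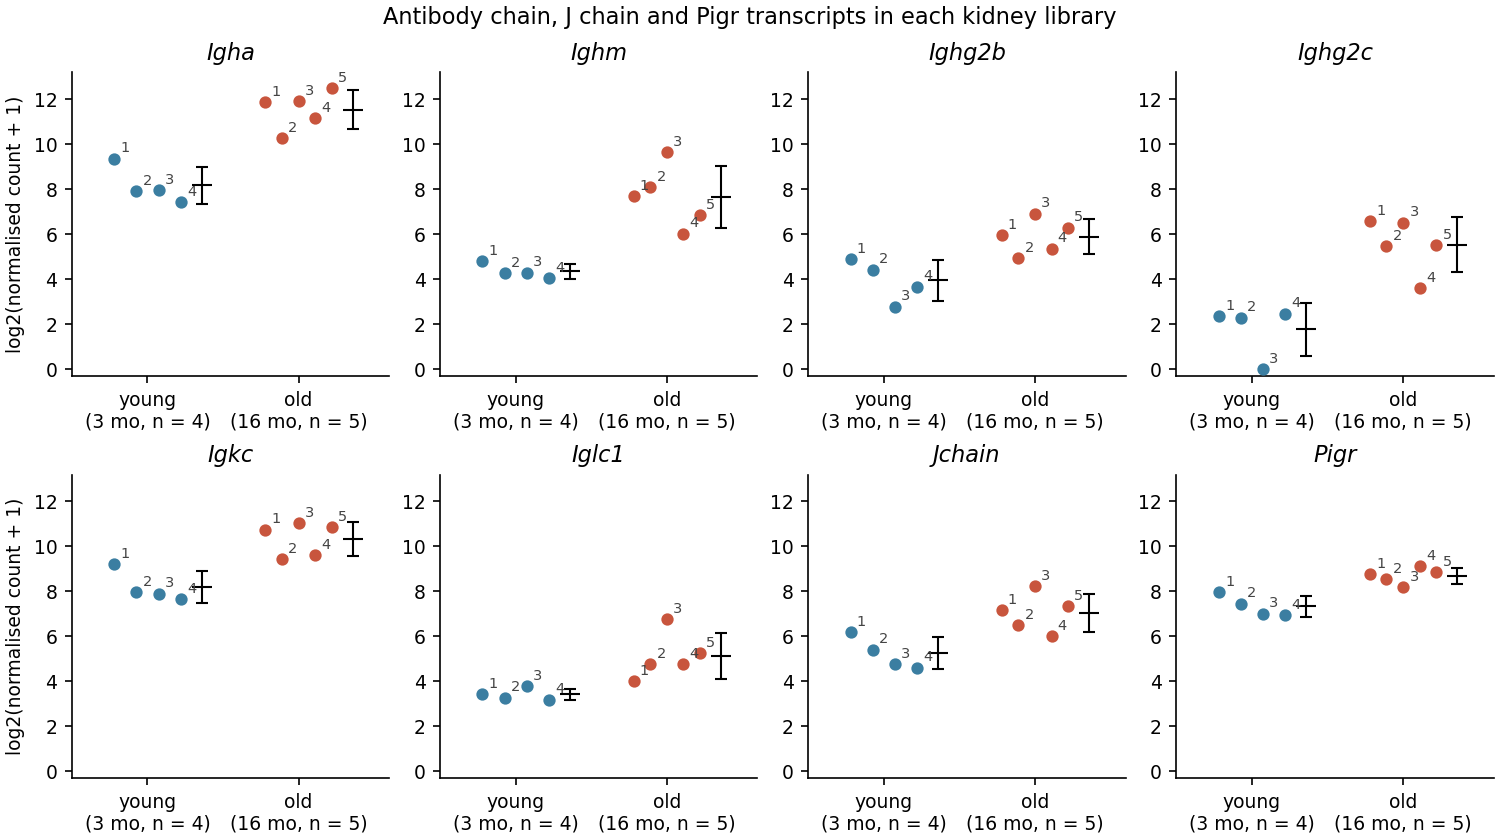
Each panel plots log2(normalized count + 1) of 1 gene for the 4 young (blue) and 5 old (red) libraries, numbered by replicate, with the group mean and SD as a black bar. The old libraries lie above the young ones in 7 panels, and in the panel of *Jchain* old replicate 4 (63.4 normalized counts) lies below young replicate 1 (72.1).

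*Igha*, the IgA heavy chain, was the most abundant of the heavy chains at both ages. It had 654, 243, 249 and 172 normalized counts in young replicates 1 to 4 and 3784, 1232, 3898, 2272 and 5731 in old replicates 1 to 5. The lowest old library lay 1.88-fold above the highest young one. The means were 329.6 ± 219.3 (SD, n = 4) and 3383 ± 1717 (SD, n = 5), and the log2 difference was 3.37 (SE 0.35).

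*Ighm*, the IgM heavy chain, was the more uneven of the J chain-binding isotypes among old mice. Its normalized counts were 27.0, 18.5, 18.6 and 15.4 in the young libraries. In the old libraries they were 207, 270.2, 808, 64.4 and 115, a 12.6-fold spread from old replicate 4 to old replicate 3. The means were 19.9 ± 4.99 (SD, n = 4) and 293 ± 299 (SD, n = 5), with a log2 difference of 3.31 (SE 0.45). The SD in old was as large as the mean because old replicate 3 was far above the rest, yet the groups did not overlap.

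The IgG genes were low. *Ighg2b* had 28.7, 20.4, 5.88 and 11.8 normalized counts in young and 61.3, 29.5, 119.7, 40.1 and 77.4 in old libraries, with a log2 difference of 1.95 (SE 0.40). Old replicate 2 and young replicate 1 differed by a factor of only 1.03. *Ighg2c* had 4.09, 3.89, 0 and 4.53 in young, which were 5, 4, 0 and 5 reads, and 95.5, 43.8, 90.3, 11.2 and 44.6 in old libraries. Its log2 difference was 3.77 (SE 0.56), which moved between 2.72 and 4.76 over the settings tried, since the young values were close to the floor of 3 reads. Of the young libraries, 3 were thus just above that floor and young replicate 3 was below it.

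Of the light chains, *Igkc*, the kappa chain, was by far the more abundant. Its normalized counts were 596, 249.7, 239, 202 in young and 1715, 689, 2124, 783 and 1877 in old libraries, with means of 322 ± 184 (SD, n = 4) and 1437 ± 658 (SD, n = 5). The log2 difference was 2.15 (SE 0.31), and the groups were separated by a factor of 1.16. *Iglc1*, a lambda chain, had 9.83, 8.74, 12.7 and 8.15 in young and 15.3, 26.3, 107, 26.1 and 37.1 in old libraries, and its log2 difference was 1.69 (SE 0.40). Old replicate 3 held the highest *Iglc1* value and old replicate 1, which was high for *Igha* and *Igkc*, the lowest of the old group. *Igkc* took 94.9% to 98.4% of light chain reads in young and 95.2% to 99.1% in old libraries.

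*Jchain*, which joins IgA and IgM into polymers, had 72.1, 41.8, 26.5 and 23.5 normalized counts in young and 141, 90.8, 299, 63.4 and 160.2 in old libraries. The means were 41.0 ± 22.2 (SD, n = 4) and 151 ± 91.4 (SD, n = 5), with a log2 difference of 1.80 (SE 0.35). Old replicate 4 fell between the 2 highest young libraries, so *Jchain* was the gene of the 8 whose groups overlapped.

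*Pigr*, the epithelial receptor for polymeric IgA and IgM, showed the smallest log2 difference of the 8 and the smallest spread among old mice, 1.91-fold from lowest to highest. Its normalized counts were 249.8, 175, 128 and 123 in young and 433, 374, 291, 556 and 459 in old libraries. The means were 169 ± 58.6 (SD, n = 4) and 423 ± 98.6 (SD, n = 5), a log2 difference of 1.34 (SE 0.19), and the lowest old library lay 1.17-fold above the highest young one.

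Genes of the antibody chains and *Pigr* did not order the old libraries alike. *Igkc* and *Ighg2b* were highest in old replicate 3, then 5, 1, 4 and 2, and *Igha* in 5, then 3, 1, 4 and 2. *Pigr* ran from old replicate 4 through 5, 1 and 2 to 3, so the library with the most *Igkc* and *Ighm* had the least *Pigr*. Old replicate 3 was the highest library for 5 of the 8 genes, and young replicate 1 was the highest young library for 6 of the 8. By mean level, the order in old kidneys was *Igha*, *Igkc*, *Pigr*, *Ighm*, *Jchain*, *Ighg2b*, *Ighg2c* and *Iglc1*, where *Igkc* lay above every *Pigr* value and the other neighbors overlapped in range. In young kidneys it was *Igha*, *Igkc*, *Pigr*, *Jchain*, *Ighm*, *Ighg2b*, *Iglc1* and *Ighg2c*, where *Pigr* lay above every *Jchain* value, *Iglc1* above every *Ighg2c* value and the other neighbors overlapped.

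Isotype shares were taken over the reads of the 4 heavy chain genes, which numbered 872, 294, 279 and 225 in young and 3519, 1440, 4848, 2560 and 5625 in old libraries. Intervals are 95% Wilson intervals and cover counting error only, as reads are not independent molecules. *Igha* took 91.6%, 85.0%, 91.0% and 84.4% of them in young and 91.2%, 78.2%, 79.3%, 95.2% and 96.0% in old libraries. The mean share was 88.0% ± 3.82 (SD, n = 4) in young and 88.0% ± 8.63 (SD, n = 5) in old kidneys, a difference far inside the spread, although the *Igha* level itself differed 10.3-fold. *Igha* thus held most reads of the 4 heavy chain genes analysed at both ages, and the old libraries were spread more widely than the young.

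The old libraries with the lowest *Igha* shares were those with the highest *Ighm* shares. The *Ighm* share was 17.2% (interval 15.3 to 19.2) in old replicate 2 and 16.4% (15.4 to 17.5) in old replicate 3. It was 5.00%, 2.70% and 1.92% in old replicates 1, 4 and 5, and 3.78% to 7.56% in the young libraries. Old replicate 2 had the lowest immunoglobulin sum of its group and old replicate 3 the second highest, so a high *Ighm* share was seen at both ends.

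The *Ighg2b* share was 4.01%, 7.14%, 2.15% and 5.78% in young and 1.48%, 1.88%, 2.43%, 1.68% and 1.30% in old libraries. Old replicate 3 lay above young replicate 3, which rested on 6 reads, and the means were 4.77% ± 2.17 (SD, n = 4) and 1.75% ± 0.438 (SD, n = 5). Within the IgG reads, *Ighg2c* made up 12.5%, 16.0%, 0% and 27.8% in young libraries, of only 40, 25, 6 and 18 reads. In old libraries it made up 60.9%, 59.7%, 43.0%, 21.8% and 36.5%, so that *Ighg2c* exceeded *Ighg2b* in old replicates 1 and 2 and in no young library. The ranges of this share overlapped between the ages.

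**Figure D2:**
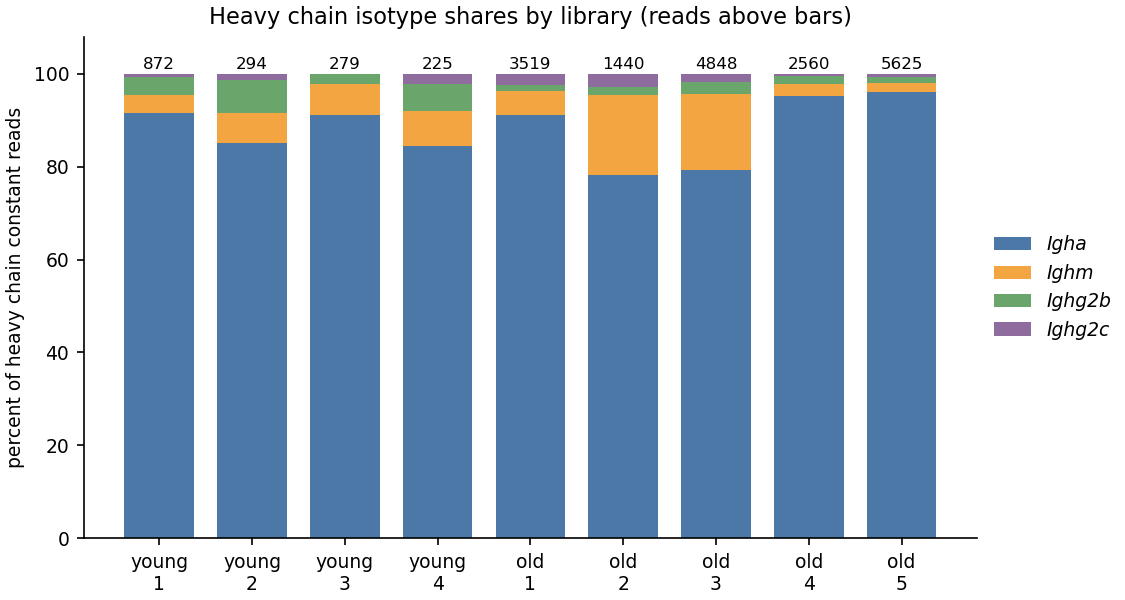
Bars show the percent of heavy chain constant reads taken by *Igha*, *Ighm*, *Ighg2b* and *Ighg2c* in each library, with the number of reads above. *Igha* takes 78.2% to 96.0% of every bar, and old replicates 2 and 3 have the largest *Ighm* parts (17.2% and 16.4%).

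Ratios of reads within a library do not depend on its size factor. *Igha* reads per *Igkc* read were 1.10, 0.973, 1.04 and 0.852 in young and 2.21, 1.79, 1.84, 2.90 and 3.05 in old libraries. The means were 0.991 ± 0.106 (SD, n = 4) and 2.36 ± 0.592 (SD, n = 5), and the groups did not overlap. Summed over genes, heavy chain reads per light chain read were 0.970 to 1.18 in young and 2.20 to 3.12 in old kidneys, where *Iglc2* is not in the light chain sum. *Igha* per *Jchain* was 9.08, 5.81, 9.41 and 7.31 in young and 26.8, 13.6, 13.0, 35.8 and 35.8 in old libraries. The J chain-binding heavy chains together, *Igha* and *Ighm*, gave 6.26 to 10.1 reads per *Jchain* read in young and 15.7 to 36.8 in old libraries. *Jchain* per *Igkc* was 0.111 to 0.167 in young and 0.0810 to 0.141 in old libraries, which overlapped. Thus the *Igha* level stood further apart between the ages than either the kappa chain or the J chain.

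Reads of *Igha* per read of its receptor gene *Pigr* were 2.62, 1.39, 1.94 and 1.40 in young and 8.75, 3.29, 13.4, 4.09 and 12.5 in old libraries. The means were 1.84 ± 0.582 (SD, n = 4) and 8.40 ± 4.65 (SD, n = 5). Old replicates 2 and 4, with the lowest *Igha*, were nearest to the young libraries.

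**Figure D3:**
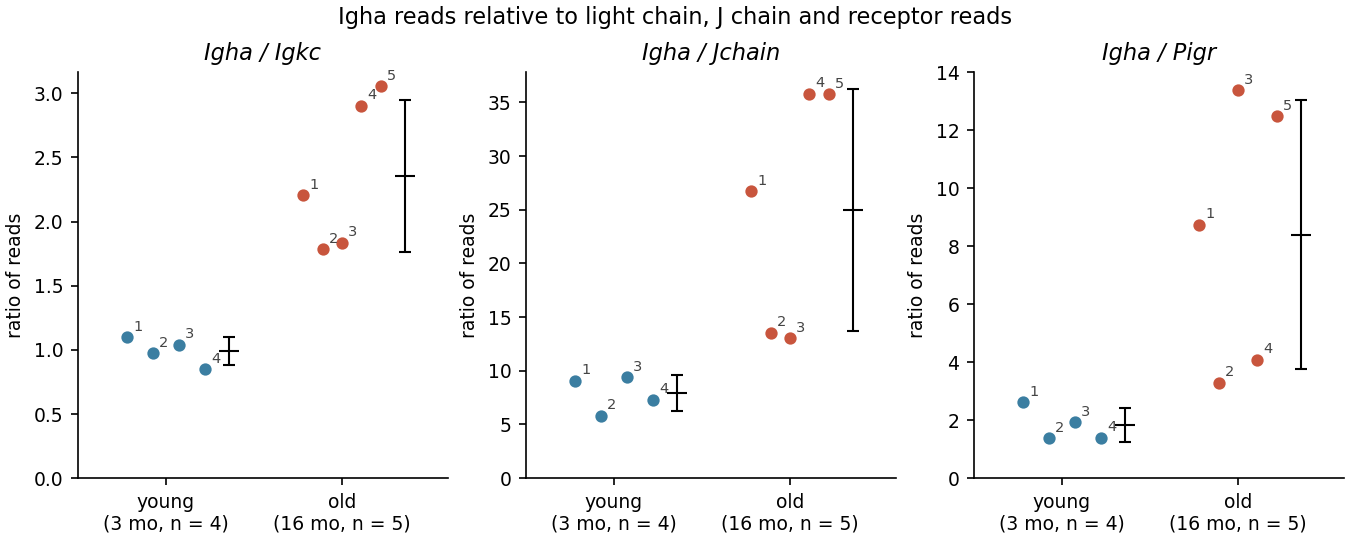
Panels plot the ratio of *Igha* reads to *Igkc*, *Jchain* and *Pigr* reads on linear axes from 0 for the 4 young (blue) and 5 old (red) libraries, numbered by replicate, with mean and SD in black. All old ratios lie above all young ones, and *Igha* per *Igkc* runs from 0.852 to 1.10 in young and from 1.79 to 3.05 in old libraries.

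The cells that carry these transcripts were looked for by their markers. Of 18 B cell markers 3 were in the table, and the defining *Ms4a1* and *Cd79a* were not analysed here. The 2 tested were the transcription factor *Ebf1* (log2 difference 0.19, SE 0.14) and the membrane protein *Cd37* (-0.21, SE 0.43). Neither was called by limma, edgeR or DESeq2, and 0 had an unadjusted limma p under 0.05. With mitochondrial genes left out, *Ebf1* was called (log2 difference 0.33, limma adjusted p = 0.0482). *Ebf1* is also made by stromal cells and fat. The summed B cell markers were 126 to 137 normalized counts in young and 122 to 261 in old libraries. Old replicate 3 alone held the 261, of which 119 were *Ly6d*, also a urothelium marker, and the remaining old libraries held 122 to 151.

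Of 16 plasma cell markers 8 were in the table and 7 were tested, of which 3 were called higher and 2 lower, with a median log2 difference of 0.53. Over all genes tested 59.7% were called. Of the 5 called here, *Slamf7*, *Eaf2* and *Cd38* passed the filter on 1 group only, so the count is not set against that share. *Slamf7*, a surface receptor of plasma cells and other immune cells, had a mean of 9.78 ± 3.49 (SD, n = 4) normalized counts in young and 34.6 ± 11.0 (SD, n = 5) in old kidneys (log2 difference 1.74, SE 0.31). *Tent5c*, a poly(A) polymerase that lengthens the tails of immunoglobulin mRNA, rose from 28.7 ± 5.83 to 65.1 ± 17.1 (log2 difference 1.14, SE 0.22, limma adjusted p = 0.000165). *Ell2*, an elongation factor that favors the secreted form of heavy chain mRNA, rose from 89.2 ± 3.37 to 164 ± 37.6 (log2 difference 0.84, SE 0.16, limma adjusted p = 0.000139). For all 3 the lowest old library was above the highest young one. *Slamf7* reached 10 normalized counts in 2 young and 5 old libraries, so it passed the filter only with the old group, which favors genes higher there.

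The 2 plasma cell markers called lower were *Eaf2*, a partner of the ELL elongation factors, and *Cd38*, an NAD-consuming ectoenzyme found on many cells. *Eaf2* went from 47.4 ± 6.89 to 13.1 ± 7.36 normalized counts (log2 difference -1.93, SE 0.33) and *Cd38* from 29.7 ± 12.6 to 9.26 ± 4.43 (log2 difference -1.62, SE 0.38). *Prdm1*, the regulator that drives plasma cell formation, and *Sdc1*, the plasma cell surface marker also made by epithelium, were not called, with log2 differences of 0.53 (SE 0.29) and -0.53 (SE 0.35). *Eaf2* reached 10 normalized counts in 4 young and 3 old libraries and *Cd38* in 4 and 2. Both passed the filter on the young libraries alone and would not have on the old ones, which favors genes lower in old but does not force it. The markers called whose passing did not rest on 1 group were *Tent5c* and *Ell2*. *Tent5c* and *Ell2* are made in many cell types besides plasma cells.

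Antibody secretion needs the folding and export machinery of the endoplasmic reticulum, which every kidney cell also has. All 24 genes of this list were tested: 3 were called higher and 13 lower in old, against 30.5% of all genes tested called lower, and the median log2 difference was -0.65. *Pdia4*, a disulfide isomerase, rose from 155 ± 22.8 to 787 ± 92.0 normalized counts (log2 difference 2.34, SE 0.12, limma adjusted p = 9.86e-12). *Erp44*, which retains unassembled IgM, fell from 288 ± 15.8 to 77.7 ± 16.6 (log2 difference -1.91, SE 0.16, limma adjusted p = 7.78e-09). *Txndc5* (log2 difference -1.83), a further disulfide isomerase, and *Sec61b* (-1.65), a part of the translocation channel, were also called lower. *Xbp1*, the factor that expands this machinery in plasma cells, was named after its values were seen. It was 514, 375, 290.2 and 336 in young and 97.8, 225, 137, 144 and 147 in old libraries (log2 difference -1.35, SE 0.19, limma adjusted p = 6.72e-06). The chaperone *Hspa5*, also named after its values were seen, was not called (0.22, SE 0.13) but was called higher with mitochondrial genes left out (0.36).

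**Figure D4:**
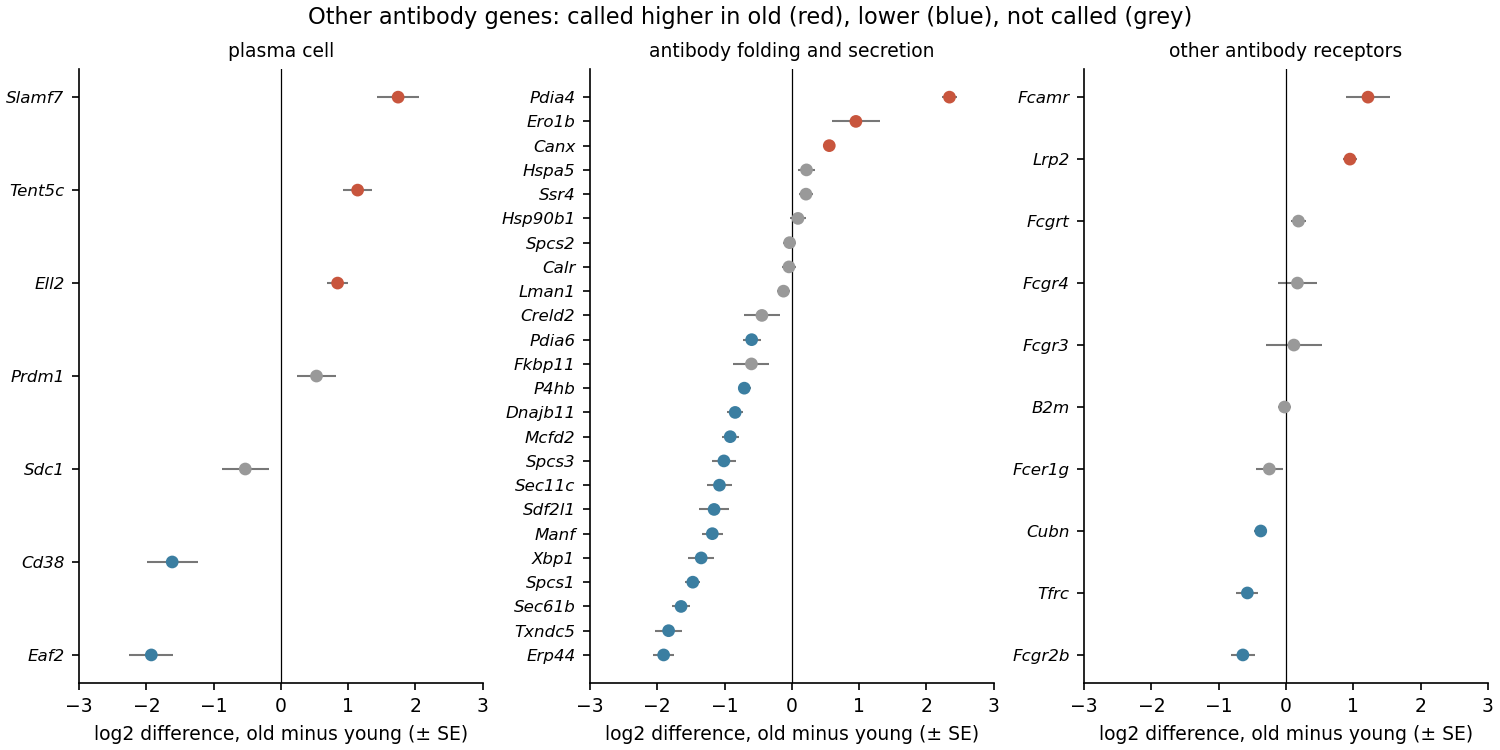
Points show the log2 difference, old minus young, with its SE for the tested plasma cell markers, folding and secretion genes and other antibody receptors, in red where called higher, blue where called lower and grey where not called. *Pdia4* (2.34) stands at the top and *Erp44* (-1.91) at the foot of the folding genes.

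The *Pigr* promoter is shown because interferon, tumor necrosis factor, interleukin-17 and interleukin-4 are known to raise *Pigr*. The bases are 250 before and 50 after the RefSeq start site, GRCm38.p6, chr1:130826434-130826733, plus strand. Capitals mark CACGTG, an E box of the kind that USF proteins bind, at position -71, and TTTCNNTTT, the core of an interferon response element, at position 8 from the start site. Both strands were searched, and the matches do not overlap. CACGTG was found in 7.15% and TTTCNNTTT in 10.6% of 32851 promoters of the same length. The *Jchain* promoter, chr5:88527848-88528147, minus strand, held neither of these letters and is shown beside it. Of the 8 genes, 2 had an entry in the promoter table.
Pigr: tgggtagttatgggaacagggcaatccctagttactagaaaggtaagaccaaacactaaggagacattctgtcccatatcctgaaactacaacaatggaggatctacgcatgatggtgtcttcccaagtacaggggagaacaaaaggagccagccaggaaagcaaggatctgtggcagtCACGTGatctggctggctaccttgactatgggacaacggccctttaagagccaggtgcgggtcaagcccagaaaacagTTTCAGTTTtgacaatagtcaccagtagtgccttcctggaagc
Jchain: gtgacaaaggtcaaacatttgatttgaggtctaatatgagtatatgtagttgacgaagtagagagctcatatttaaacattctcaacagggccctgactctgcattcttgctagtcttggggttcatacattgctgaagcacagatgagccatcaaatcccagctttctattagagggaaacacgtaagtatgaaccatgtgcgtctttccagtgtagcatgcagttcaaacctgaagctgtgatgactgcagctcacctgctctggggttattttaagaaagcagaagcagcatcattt

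Of 24 genes for *Pigr* inducing signals and transcytosis 23 were tested, of which 6 were called higher and 5 lower, with a median log2 difference of -0.01. This is no more than the background of 29.2% called higher and 30.5% lower. Among receptors of the inducing cytokines, *Tnfrsf1a*, a tumor necrosis factor receptor, fell from 245 ± 15.4 to 101 ± 9.29 normalized counts (log2 difference -1.27, limma adjusted p = 4.93e-08). *Il17ra*, the interleukin-17 receptor chain, fell from 165 ± 18.8 to 75.1 ± 17.2 (log2 difference -1.15, limma adjusted p = 9.71e-06). *Ifngr1*, the interferon gamma receptor chain, rose from 93.9 ± 16.5 to 192 ± 23.5 (log2 difference 1.04, limma adjusted p = 6.77e-06). *Yes1*, the kinase that speeds *Pigr* transcytosis when IgA is bound, rose from 42.1 ± 4.11 to 91.4 ± 14.7 (log2 difference 1.09, limma adjusted p = 1.99e-05). Of the other inducing receptors, named after their values were seen, *Il4ra*, the interleukin-4 receptor chain, was called lower (-0.49, SE 0.14, limma adjusted p = 0.00569). *Il17rc* (-0.50, SE 0.21) and *Ifngr2* (-0.45, SE 0.20) were not called. Of these 6 receptors 3 were thus called lower and 1 higher.

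Of 15 other antibody receptor genes 10 were tested, with 2 called higher and 3 lower and a median log2 difference of 0.05. The background was 29.2% higher and 30.5% lower, but *Fcamr* passed the filter only with the old libraries, so the higher count is not set against it. *Fcamr*, a receptor for IgA and IgM that lies beside *Pigr* in the genome, had a mean of 8.54 ± 3.32 (SD, n = 4) in young and 20.7 ± 5.18 (SD, n = 5) in old kidneys (log2 difference 1.22, SE 0.33). It reached 10 normalized counts in 1 young and 5 old libraries, so it passed the filter only with the old group, which favors genes higher there. *Lrp2*, megalin, which takes up filtered protein including light chains, rose with a log2 difference of 0.95 (limma adjusted p = 3.45e-07), and its partner *Cubn* fell with one of -0.37 (limma adjusted p = 0.00272). The other falls were in *Fcgr2b*, the inhibitory IgG receptor (-0.64, limma adjusted p = 0.00393), and *Tfrc*, the transferrin receptor that also binds polymeric IgA1 in humans (-0.57, limma adjusted p = 0.00542). *Fcgrt*, the neonatal Fc receptor that recycles IgG, was not called (0.19, SE 0.11) but was with mitochondrial genes left out (0.33, limma adjusted p = 0.00866). The remaining genes were not called: *B2m*, the partner chain of *Fcgrt* (-0.02, SE 0.09), the IgG receptors *Fcgr3* (0.12, SE 0.42) and *Fcgr4* (0.17, SE 0.29), and *Fcer1g*, the signaling chain of Fc receptors (-0.25, SE 0.20).

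Of 25 genes for B cell help and homing 11 were tested, of which 7 were called higher and 1 lower, with a median log2 difference of 0.67. The background was 29.2% called higher and 30.5% lower, but 4 of the 7 passed the filter only with the old libraries, so the count is not set against it. These 4 were *Aldh1a1*, *Tgfb1* and, named after their values were seen, *Ccl19* and *Itga4*, with 1 and 2 young libraries at 10 normalized counts or more. *Aldh1a1*, which makes retinoic acid, had 5.33 ± 4.41 (SD, n = 4) normalized counts in young and 44.7 ± 15.2 (SD, n = 5) in old kidneys (log2 difference 3.03, SE 0.39). It too passed the filter through the old group, with 1 young library at 10 or more. *Tgfb1*, the cytokine that directs switching to IgA, had 18.4 ± 7.23 in young and 61.3 ± 22.7 in old kidneys (log2 difference 1.70, SE 0.28) and passed the filter in the same way, with 3 young libraries at 10 or more. *Ccl25*, a chemokine for IgA plasma cells of the small intestine, was called higher (0.70, limma adjusted p = 0.019). Its call was lost without young replicate 1 (limma adjusted p = 0.0771), young replicate 4 (0.0520) or old replicate 4 (0.0514). *Cxcl12*, a chemokine that retains plasma cells in bone marrow, fell (-0.73, limma adjusted p = 7.44e-05). Without young replicate 3, 5 genes of this list were called in all.

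Markers of other cells were counted in the same way. Of 11 macrophage markers tested 5 were called higher and 1 lower, where the background was 29.2% and 30.5%. *Cx3cr1*, the fractalkine receptor, was called higher (log2 difference 1.17, SE 0.21, limma adjusted p = 7.96e-05), with *Ms4a7* at a log2 difference of 1.95, *Mrc1* at 1.66 and *C1qc* at -0.83. *Ms4a7*, *Mrc1* and *Adgre1*, the last named after its values were seen, reached 10 normalized counts in 1, 2 and 0 young libraries. These 3 of the 5 passed the filter only with the old libraries, so the count is not set against the background. Among T cell markers 1 of 2 tested was called higher, *Trac*, which reached 10 normalized counts in 1 young library and also passed with the old ones. Of neutrophil markers, 0 of 2 were called by limma, edgeR or DESeq2, with 0 at an unadjusted limma p under 0.05. Red blood cell genes gave 2 higher and 1 lower of 5 tested, and their sum was 13530 to 19362 normalized counts in young and 12446 to 30372 in old libraries. Lymph node stroma genes gave 2 higher of 3, *Ccl19* and *Ccl21a*, both also in the B cell help list. Kidney epithelial genes gave 5 higher and 4 lower of 12, and Y-linked genes 3 higher of 4. *Ccl19* and the kidney gene *Nphs1* reached 10 normalized counts in 1 and 2 young libraries. Both passed the filter only with the old libraries, so the lymph node stroma and kidney counts are not set against the background. The Y-linked *Ddx3y* was read in every library, at 125 to 179 normalized counts in young and 179 to 267 in old. Each library thus held RNA of male mice. The part of any cell type listed here in the immunoglobulin levels was not tested.

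Libraries also differed in fat and in the tissue of the medulla and urinary lining. The sum of 7 adipocyte markers was 326 to 1557 normalized counts in young and 146 to 1537 in old libraries, highest in young replicate 2 and old replicate 3. By library it was 326, 1557, 541.2 and 459 in young replicates 1 to 4 and 545, 237, 1537, 146 and 293 in old replicates 1 to 5. Of the 5 adipocyte markers tested, 1 was called higher and 1 lower, where 29.2% of all genes tested were called higher and 30.5% lower. The sum of 7 medulla and urothelium markers, a list drawn up after values were seen, was 1430 to 2087 in young libraries. Old replicate 3 had 3638, and the remaining old libraries had 714 to 1028. Of 6 tested, 0 were called higher and 1 lower, beside the same shares of all genes. Old replicate 3 also held the highest *Igkc*, *Ighm*, *Iglc1*, *Ighg2b* and *Jchain* values. The part of fat or of medulla and urothelium in the antibody chain levels was not tested. Without old replicate 3 and young replicate 2 the log2 difference was 3.19 for *Igha*, 1.90 for *Igkc*, 2.79 for *Ighm*, 1.23 for *Iglc1*, 1.85 for *Ighg2b*, 3.69 for *Ighg2c*, 1.56 for *Jchain* and 1.51 for *Pigr*.

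**Figure D5:**
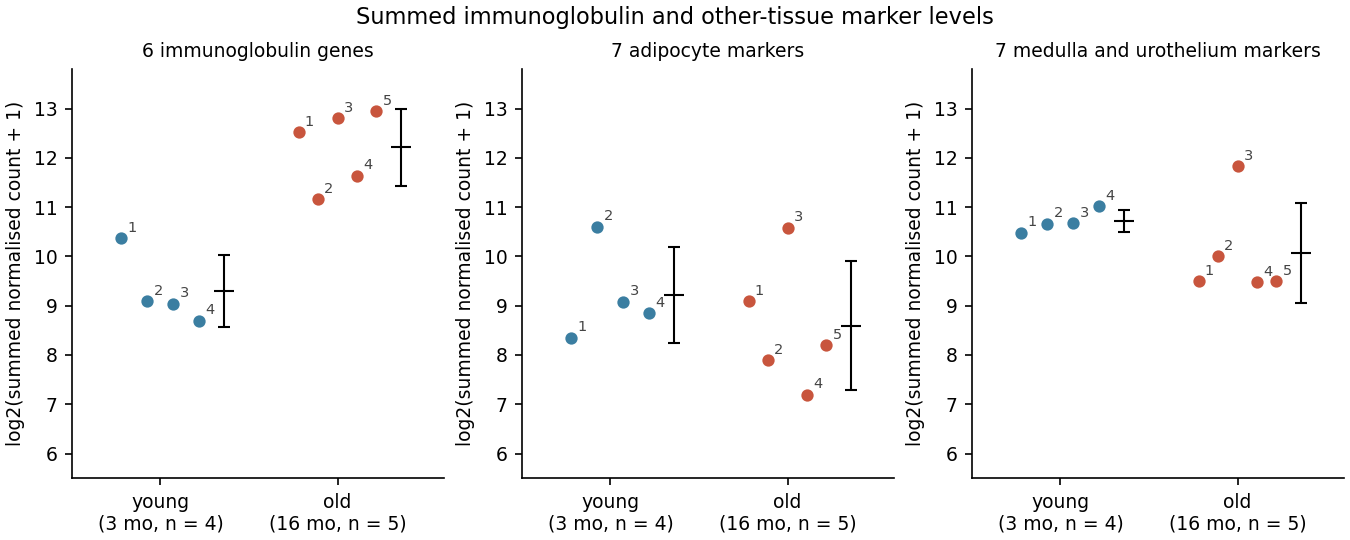
Panels plot log2(summed normalized count + 1) of the 6 immunoglobulin genes, 7 adipocyte markers and 7 medulla and urothelium markers for the 4 young (blue) and 5 old (red) libraries, numbered by replicate, with mean and SD in black. Old replicate 3 is the highest of its group in the panels of adipocyte and of medulla and urothelium markers, while old replicate 5 is the highest for the immunoglobulin sum (7881 normalized counts).

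The genes whose profile over the 9 libraries was nearest to that of the immunoglobulin sum were found by the root mean square difference of centered log2 values, over 12659 genes. They were *Gm38302* (0.32), *Gm42913* (0.44), *Slpi* (0.46), *Gm37314* (0.46) and *Gm20696* (0.50), beside 0.27 for *Igha* and 0.40 for *Igkc*, which are in the sum themselves, and 0.67 for *Jchain*. *Slpi*, a protease inhibitor of mucosal secretions, had 1.80 ± 0.617 (SD, n = 4) normalized counts in young and 16.7 ± 7.34 (SD, n = 5) in old kidneys. All 5 had young means under 5 normalized counts, and with a pseudocount of 5 only 1 of them stayed among the 5 nearest. The genes nearest to *Pigr* were *Syt14* (0.18), *Atp4a* (0.19), *Pdzd8* (0.21), *Srcap* (0.22) and *Nfil3* (0.22), whereas *Igkc* stood at 0.78 and *Jchain* at 0.80. The genes listed were picked as the nearest, so these distances only describe the profiles.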

How the data were processed

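Total RNA of whole kidneys (500 ng, RIN 7.4 to 7.6 per the labels) was reverse transcribed from oligo(dT) and sequenced as stranded single reads with a kit that reads transcript 3' ends. The authors aligned reads to GRCm39 with TopHat2 2.0.10 and Bowtie 1.0.0, counted them per gene and strand with HTSeq 0.6.1 and normalized them with DESeq. FastQC 0.11.7 and SAMtools 0.1.19 are also named in the submitters' processing notes. Each deposited value is a signal: the read count of a gene after division by the size factor of its library. With the smallest positive value of a library taken as 1 read, 100% of values were whole within 0.01.

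Groups came from the age labels, and replicate numbers follow listing order. The two-sided moderated test of limma 3.58.1 (eBayes, variance trend on) in R 4.3.3 was run on log2(normalized count + 1) over 12667 genes with at least 10 normalized counts in at least 4 of the 9 libraries. Genes were called at a Benjamini-Hochberg adjusted p under 0.05. The log2 scale understates changes of low genes. Alternatives were edgeR 4.0.16 (quasi-likelihood) and DESeq2 1.42.0 on recovered reads, other pseudocounts, filters and scalings, robust eBayes and leaving out libraries. The fits were also run on simulated counts in which most genes were unchanged. That setting differs from these data, where most genes tested were called, so the run does not vouch for these calls.

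The genes described and the marker lists were chosen with earlier results of these data known. The genes eligible for naming were all chosen genes, every tested gene of the B cell, plasma cell and antibody receptor lists, up to 4 called genes of each other list by absolute log2 difference with a mean of at least 20 normalized counts, and the 5 nearest profiles. Called genes of the red blood cell, adipocyte, kidney and sex-linked lists are given as counts. The exceptions are *Lipe*, whose call changed with the setting, *Nphs1*, for how it passed the filter, and *Ddx3y*, for the sex of the mice. No other immunoglobulin gene was analysed.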

Additional observations from a re-analysis of the deposited data

Results flagged for a closer look

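Among 54 groups of libraries examined, 3 held a value set apart from its group by Dixon's 95% limit. Chance flags about 1 in 20, or 2.7 of these groups, so the count is at the chance level. *Ighg2c* was at 0 on the log2(normalized count + 1) scale in young replicate 3, and at 2.29 to 2.47 in the other young libraries. Old replicate 3 had summed medulla and urothelium markers of 11.8 on the log2 scale, against 9.48 to 10.01 in the rest of its group. The same library had summed B cell markers of 8.03 on the log2 scale, against 6.94 to 7.25. *Ly6d*, which is in both of these lists, was at 119 normalized counts there and between 3.73 and 14.1 in the remaining old ones. The part of these markers in the immunoglobulin values was not tested.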

How the results depend on the processing

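No stability is read from the antibody genes, which were chosen on this contrast. The settings moved the log2 difference of *Igha* between 3.13 and 3.77, of *Ighm* between 2.79 and 3.88, of *Igkc* between 1.90 and 2.50, of *Jchain* between 1.502 and 2.11 and of *Pigr* between 1.21 and 1.55. Testing only genes whose mean reached 100 normalized counts, which are fewer, called 4101 genes in place of 7568, 2040 higher and 2061 lower. With it 5 of the antibody genes passed the filter and were called, with 1 plasma cell, 3 antibody receptor, 1 B cell help and 1 macrophage gene. Leaving out mitochondrial genes shifted the median log2 difference by 0.14, moved the share of calls that were higher from 48.9% to 58.6% and called 1 B cell gene in place of 0. With each library left out in turn, 5 to 7 B cell help genes were called in place of 8, and 5 without both old replicate 3 and young replicate 2, a setting chosen after seeing the data. The cause was not tested. With a pseudocount of 5, 1 of the 5 nearest profiles to the immunoglobulin sum remained. Of 28 other genes followed through the settings 2 lost their call in some setting. *Ccl25* lost it without young replicate 1 (limma adjusted p = 0.0771), young replicate 4 (0.0520) or old replicate 4 (0.0514). The adipocyte lipase *Lipe* (log2 difference 0.86, called higher) lost it with robust eBayes (0.0679) or without young replicate 1 (0.0547). Other genes named as called, such as *Ccl19*, *Itga4*, *Adgre1* and *Trac*, were not among the 28. With libraries left out, the old minus young difference in the *Igha* share ran from -2.07 to 2.39 percentage points and that of *Igha* per *Igkc* from 1.19 to 1.51. Taking all heavy chain genes as denominator gave the same shares, since the table held only these 4. No paired analysis was possible because the young and old kidneys were of separate mice. *Ighg2c*, *Ighg2b* and *Iglc1* rest on few reads in young libraries, which limits their shares.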
